A study of Macaca mulatta with 5 samples.

Results

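Kinesins, cytoplasmic dyneins and tubulins are the motors and the track of the microtubule system. The 52 genes described here are those whose symbol in the array's probe annotation names a kinesin, a subunit of cytoplasmic dynein or a tubulin, with KIF5C and TUBB3 left out by the rule. They were taken from 14132 genes with a named probe set. Each gene is represented by its brightest probe set, the one with the highest mean log2 signal over the arrays.

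The samples came from rhesus macaque embryonic stem cells of line 366.4, cultured towards serotonin neurons, and each of 5 stages was hybridised to 1 array. ESC were undifferentiated cells at passage 13 on a layer of mouse embryonic fibroblasts. EB were embryoid bodies collected after 6 to 8 days. N1 were spheres kept for 7 to 9 days in medium with N2 supplement, N2 were cells grown on for a further 7 to 9 days with added FGF4, and N3 were cells matured without FGF4 on a matrix reduced in growth factors. All stages derive from 1 line, whose cells came from flushed embryos, and how mixed each culture was is not given. Of 5 genes that mark pluripotent cells, 4 were at least 2-fold lower in N3 than in ESC, and 1, NANOG, was 2.06-fold higher (1047 and 2155). Of 8 genes that mark serotonin neurons, a list added after the data were seen, 6 have a probe set. TPH1 and TPH2, the enzymes of serotonin synthesis, were below a signal of 100, the floor used here, on every array. GATA3 was 2.58-fold higher in N3 than in ESC (348 and 895), with its highest signal in EB (3911), and SLC18A2, the vesicular transporter of monoamines, had 86.9 and 150 in the same arrays. FEV and GATA2 lay near the floor, at 85.3 and 107 in N3. With 1 array at each stage there is no replicate, no error and no test, and no difference below has a replicate check. In bulk samples, fewer cells of a type and less RNA per cell cannot be told apart.

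Microtubules are hollow polymers of alpha and beta tubulin. Gamma tubulin and its complex start new microtubules at the centrosome, and delta and epsilon tubulin serve the centriole, the structure from which a cilium grows. Most kinesins walk towards the plus end of a microtubule and dynein walks towards the minus end. Dividing cells use one group of kinesins to build the spindle and to finish cytokinesis. Neurons rely on another group, and on dynein, to move vesicles, mitochondria and receptors along axons and dendrites.

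Signals are array intensities on a linear scale, rescaled to the same trimmed mean of 500 on every array. Values under a floor of 100 were set to 100 before any ratio was taken. The highest of 42 negative control probe sets lay between 47.6 and 87.2 on the 5 arrays. A ratio with 1 side under the floor is a bound, written "at least" for folds, and log2 ratios of dimmer second probe sets can be such bounds. Where 5 signals are given in a run, they follow the order of the culture, from ESC to N3. Signals of different genes come from different probes and are not compared with each other.

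Of the 52 genes, 48 reached the floor on at least 1 array and 37 on all 5. KIF16B and KIF3A, both transport kinesins, KIF25 and the light chain gene DYNLT5 stayed below it throughout. Among the 48, the highest stage was at least 2-fold over the lowest for 25 genes, or 52.1%, against 52.2% of all measured genes. Motors and tubulins therefore varied over the culture about as often as other genes did. Of the 25, the highest stage was ESC for 10, EB for 4, N1 for 2, N2 for 5 and N3 for 4. The matching shares of all genes spanning 2-fold were 37.7%, 16.1%, 9.44%, 13.0% and 23.7%.

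The arrays differed in RNA quality. The ratio of the 3' to the 5' actin control signal was 1.73, 15.2, 5.43, 25.2 and 8.63 from ESC onwards, and for GAPDH the highest ratio was 7.10, on the N2 array. Of the 48 measured genes, 18 were lowest in EB or N2, the pair of arrays with the highest actin ratios, against 35.6% of all measured genes (4141 of 11642). The lowest stage was read from signals before the floor was set, so dim genes can be ordered by differences below it. The part of RNA quality in the values below was not tested.

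The mitotic kinesins as a group had lower signals in N3 than in ESC. Of 13 listed genes 7 have a probe set here, and all 7 lay above the floor on every array. In N3 against ESC, 4 of the 7 were at least 2-fold lower and 0 higher, where 16.4% of all measured genes were lower and 17.2% higher. Their median log2 ratio was -1.29, against -0.13 over all genes. The same shares and median of all genes apply to the other lists in N3 against ESC below.

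KIF2C, which takes microtubules apart at the centromere, had signals of 4149, 3020, 2616, 1608 and 1344. It was lower at each successive stage, and the end of the series was 3.09-fold below the start. Its second probe set read 804, 388, 416, 96.1 and 155, a log2 ratio of -2.38 in N3 against ESC. That probe set was not lower at each stage, and its lowest signal was in N2.

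KIF18A, a kinesin that limits the length of spindle microtubules and helps to align chromosomes, stood at 480, 553, 514, 323 and 170. The first 3 stages lay close together, and N3 was 2.82-fold below ESC. KIF23, a subunit of the centralspindlin complex of cytokinesis, read 3249, 3451, 1954, 2033 and 1330. Its signal was 2.44-fold lower in N3 than in ESC, in steps at N1 and at N3.

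KIFC1, a minus-end kinesin that bundles microtubules at the spindle poles, followed another course. It stood at 2206 in ESC and at 962, 916, 728 and 786 from EB to N3. It was 2.29-fold lower in EB than in ESC, and the later 4 arrays stayed within a narrow range. With arrays scaled to equal medians that log2 ratio was -0.71.

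The remaining 3 did not reach 2-fold in N3 against ESC. KIF4A, which works at the central spindle, had signals of 1177, 1668, 1411, 1069 and 924 over the stages, with the highest in EB. KIF22, a chromosome-binding kinesin, had 1897, 2501, 1796, 1363 and 1458. Its second probe set went from 913 in ESC to 290 in EB and 280 in N3, so the probe sets of this gene disagreed over the step to EB.

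KIF20B, a kinesin of late cytokinesis, was the exception in direction, with 1070, 965, 1382, 1420 and 1830. The N3 signal was 1.71-fold that of ESC. Of its other 3 probe sets, 2 were also higher in N3 (log2 ratios of 1.23 and 0.84) and 1 was lower (-0.59). No single direction can therefore be given for KIF20B.

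**Figure D1:**
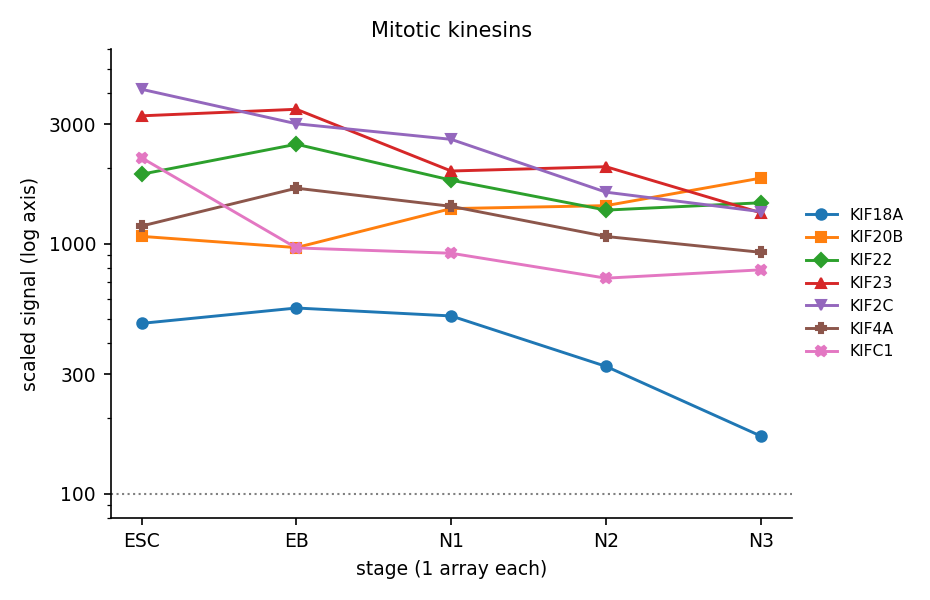
Scaled signal (log axis) of the 7 mitotic kinesins at the 5 stages, 1 array for each point, with the floor of 100 dotted. KIF2C, KIF18A, KIF23 and KIFC1 end at least 2-fold below their ESC value, whereas KIF20B ends above it.

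On the brightest probe sets, no single step held the whole difference. The median log2 ratio of the mitotic kinesins was 0.09 in EB against ESC, -0.21 in N1 against EB, -0.40 in N2 against N1 and -0.21 in N3 against N2, and the sign for N1 against EB turned to 0.26 with scaling to hybridisation controls. Apart from KIFC1 between ESC and EB, none of the 7 passed 2-fold in an adjacent step on its brightest probe set. Second probe sets did in EB against ESC and N2 against N1 for KIF2C (log2 ratios of -1.05 and -2.06) and KIF22 (-1.65 and -1.37). So did the third probe set of KIF20B in N2 against N1 (1.35). In N3 against ESC, 6 of 7 were below ESC, as were 56.0% of all genes, and the count was 6 of 7 under each of the 9 other settings tried. Several of these settings could not change it. The other floors cannot turn these signs, and none of the 7 is on a probe set marked as able to bind related transcripts.

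Partners of these kinesins in the spindle and in cytokinesis were mostly lower too. Of 18 listed genes 10 have a probe set, and in N3 against ESC 7 were at least 2-fold lower and 0 higher, with a median log2 ratio of -1.51. INCENP, the scaffold of the chromosomal passenger complex, went from 432 to 104 (4.15-fold lower), TPX2, a spindle assembly factor, from 1028 to 291 (3.54-fold), the mitotic kinase gene AURKA from 3717 to 1085 (3.43-fold) and ECT2, an activator of cytokinesis, from 4599 to 1369 (3.36-fold). RACGAP1, which binds KIF23 in centralspindlin, did not share this course, with 691 in ESC and 919 in N3. Nor did ASPM, a protein of the spindle poles, with 255 and 379, although its second probe set gave a log2 ratio of -1.36. Both were singled out after their values were seen.

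Markers of dividing cells were lower along with the group. Their summed signal over 8 genes was 53608, 48342, 41948, 30814 and 23416. In N3 against ESC 6 of the 8 were at least 2-fold lower, and all 8 stayed above the floor on every array. Their part in the kinesin values was not tested.

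Transport kinesins had no common direction over the whole series. Of 16 listed genes 13 have a probe set and 11 were measured. In N3 against ESC, 1 was at least 2-fold higher and 3 lower, with a median log2 ratio of 0.00. Of all genes, 17.2% were higher and 16.4% lower, with a median of -0.13.

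KIF5B, the heavy chain of conventional kinesin present in most cells, was nearly level, with 12993, 13556, 14344, 15683 and 15690. Its whole span was 1.21-fold. The second probe set went from 309 to 189 between ESC and N3.

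KIF5A, the form of that heavy chain found mainly in neurons, read 122, 7.88, 60.4, 273 and 306. It lay below the floor in EB and N1 and was at least 2.73-fold higher in N2 than in N1. N3 was 2.50-fold above ESC, at signals not far above the floor. With a floor of 200 the log2 ratios were 0.45 and 0.62. Neuron markers were higher on the same arrays, and already in N1, where KIF5A was below the floor. Their summed signal over 7 genes was 3380, 4109, 22530, 40786 and 62349, and 6 of the 7 were at least 2-fold higher in N3 than in ESC. Markers of other cells did not all go one way. Of 7 fibroblast and matrix genes, 4 were at least 2-fold higher in N3 than in ESC and 2 lower (COL3A1 2.99-fold and THY1 2.66-fold), with sums of 14410 and 57608. Of 3 skeletal muscle genes, MYH3 and MYL1 were higher, at least 141-fold and 120-fold, and TNNT1 was 1.27-fold lower. The part of these cells in the KIF5A value was not tested.

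KIF21A, a kinesin that restrains microtubule growth and is known from nerve development, was lower on the middle arrays. It stood at 1063, 487, 467, 1297 and 1373. The EB array was 2.18-fold below ESC, and the N2 array was 2.77-fold above N1. The first log2 ratio was -0.64 under equal medians, and the second was 0.90 under scaling to hybridisation controls. The second probe set reached the floor in N3 alone, at 159.

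KIF1B, which carries mitochondria and precursors of synaptic vesicles, ran the other way. Its signals were 4398, 2292, 2818, 1032 and 1819, lowest on the N2 array, which had the highest actin and GAPDH ratios. It was 2.73-fold lower in N2 than in N1 and 2.42-fold lower in N3 than in ESC. Both of those ratios had the same sign on its second probe set, but smaller (log2 ratios of -0.62 and -0.78), and the third had 0.23 in N3 against ESC.

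KIF1C, a vesicle motor of many tissues, read 1500, 1155, 647, 705 and 608 over the stages. It was 2.47-fold lower in N3 than in ESC, and its second probe set was lower as well (a log2 ratio of -1.42, a bound). The brightest probe set of KIF1C is marked as able to bind related transcripts. KIF17, a carrier of glutamate receptors in dendrites, had 230, 120, 161, 186 and 96.0, and was at least 2.30-fold lower at the end than at the start. With a floor of 200 the log2 ratio was -0.20.

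Among the kinesin-2 motors, which serve both cilia and axons, KIF3B read 990, 1465, 1104, 1235 and 1626. All 3 of its probe sets were higher in N3 than in ESC (log2 ratios of 0.72, 1.14 and 0.84). KIF3C had signals of 1803, 874, 1012, 1244 and 1476. KIF3C was 2.06-fold lower in EB than in ESC and its second probe set gave a log2 ratio of -1.10 there. With equal medians the ratio of the brightest was -0.56. For N3 against ESC the probe sets of KIF3C differed in sign (-0.29 and 0.66).

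KIFAP3, the subunit that links these motors to cargo, is outside the family and was taken from the list of light chains and adaptors. It stood at 670, 2785, 2518, 4340 and 4657, 6.95-fold higher at the end, and its second probe set went from 358 to 2083. In that list all 10 genes have a probe set, 8 were measured in N3 against ESC, 2 were at least 2-fold higher and 1 lower. The other higher gene was the scaffold MAPK8IP2 (3.08-fold, with a log2 ratio of -0.81 on its second probe set). The lower one was the light chain gene KLC3 (3.87-fold).

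The minus-end kinesin KIFC2 had 211, 104, 235, 308 and 209, close to the floor in EB. It was 2.02-fold lower in EB than in ESC and 2.25-fold higher in N1 than in EB. With quantile normalisation the log2 ratios were -0.73 and 0.79. KIFC3, a minus-end kinesin of cell junctions, had 214, 330, 431, 290 and 355, with its lowest value in ESC. KIF13A, an endosome motor, had 265, 172, 232, 309 and 265 and did not reach 2-fold over the series.

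**Figure D2:**
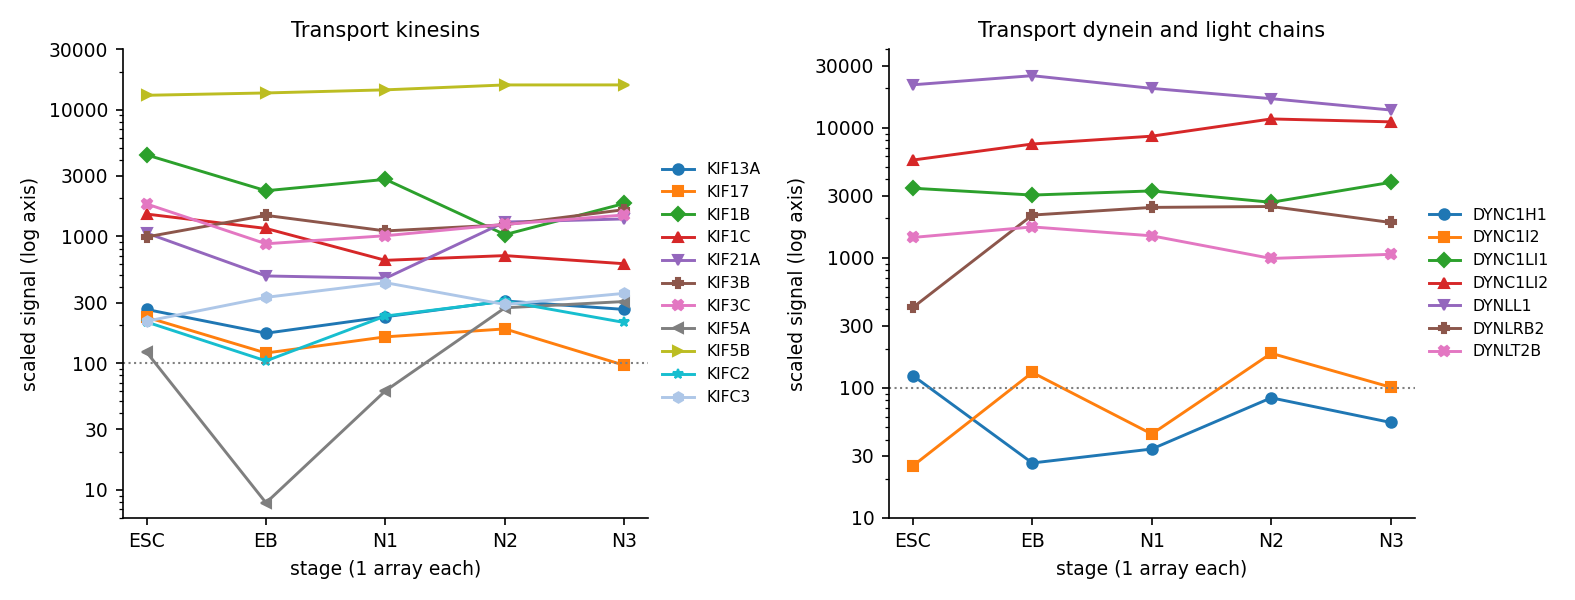
Scaled signal (log axis) at the 5 stages, 1 array for each point, of 11 transport kinesins (left) and of 4 transport dynein subunits with 3 light chains (right). KIF5B stays within 1.21-fold, KIF5A drops under the dotted floor of 100 in EB and N1, and DYNLRB2 lies lowest in ESC.

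Cytoplasmic dynein moves cargo to the minus end. DYNC1LI2, a light intermediate chain that joins the motor to its adaptors, had 5627, 7474, 8588, 11651 and 11064. The later arrays were above the earlier ones, by 1.97-fold for N3 against ESC, and the other 3 probe sets were also higher (log2 ratios of 1.05, 0.51 and 1.38). Its relative DYNC1LI1 had 3418, 3028, 3259, 2664 and 3791, a span of 1.42-fold, on a probe set marked as able to bind related transcripts. The second probe set of DYNC1LI1 read 1832, 1207, 1927, 825 and 1221. Its log2 ratio was -1.22 in N2 against N1. In N3 against ESC the probe sets differed in sign (0.15 and -0.58), so no direction can be given for DYNC1LI1.

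The heavy chain gene DYNC1H1, which holds the motor itself, lay above the floor in ESC alone (124) and at 26.4 to 83.7 elsewhere. The intermediate chain gene DYNC1I2 lay between 25.1 and 184. Neither allows a statement about dynein level at these signals.

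Among the light chains, DYNLL1, a small hub protein also found outside dynein, had 21321, 25057, 20012, 16681 and 13640 from ESC to N3, a span of 1.84-fold. DYNLRB2, a light chain of the roadblock family, had 414, 2125, 2434, 2474 and 1864. ESC lay apart from the other 4 arrays, and EB was 5.13-fold and N3 4.50-fold above it. The second probe set of DYNLRB2 was below the floor on all arrays. DYNLT2B, a light chain of the dynein of cilia, had 1430, 1723, 1472, 986 and 1061.

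In the list of dynactin subunits and dynein regulators, 14 of 20 genes have a probe set. In N3 against ESC 2 were at least 2-fold higher and 3 lower (median log2 ratio of 0.02). BICD1, an adaptor for dynein, was 7.65-fold higher (217 and 1663) on its brightest probe set, with a log2 ratio of -0.43 on the other. The dynactin subunit gene DCTN5 was 5.21-fold lower (734 and 141), the capping protein gene CAPZA2 3.70-fold (9060 and 2452) and ACTR1A, which forms the filament of dynactin, 3.10-fold (1062 and 342).

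ACTR1A read 1062, 142, 380, 104 and 342, lowest on the EB and N2 arrays, the pair with the highest actin ratios. INCENP, TPX2 and DCTN5 were lowest on the N2 array too (85.6, 252 and 135), but for TPX2 and DCTN5 the next lowest array was N3. AURKA, ECT2 and CAPZA2, from the same lists, were lowest in N3 (1085, 1369 and 2452). These genes were picked after their values were seen. Among all 11642 measured genes, 2103 were lowest in N2. The part of RNA quality in these values was not tested.

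Being lowest in ESC was common, at 16 of the 48 measured genes of the family and 28.6% of all measured genes. These counts use signals before the floor was set. Being lowest in ESC held for 3 of 6 cilium kinesins and 1 of the 2 centriole tubulins. Among those kinesins, KIF6 was below the floor both in ESC (8.21) and in N3 (77.4). All 3 measured subunits of the dynein that works inside cilia were lowest in ESC. DYNC2I1, an intermediate chain, read 30.8, 241, 275, 476 and 408. It was below the floor in ESC alone and at least 4.08-fold higher in N3. Its second probe set did not share this, at 101 in ESC and 93.3 in N3.

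DYNC2LI1, the light intermediate chain, stood at 406, 502, 635, 755 and 738. DYNC2I2, the other intermediate chain, stood at 1136, 1621, 1397, 1482 and 1528. The median log2 ratio of the 3 in N3 against ESC was 0.86. All 3 were above 0, as were 44.0% of all genes, and stayed so under each of the other settings tried. Of those settings, a change of floor cannot turn a sign on a given probe set.

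TUBE1, epsilon tubulin, had 239, 659, 698, 867 and 625. ESC was again the low array, with EB 2.76-fold and N3 2.62-fold above it. TUBD1, delta tubulin, did not follow, with 317, 235, 391, 196 and 163 and its highest signal in N1.

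Among the 6 cilium kinesins, 2 of 5 measured were at least 2-fold higher in N3 than in ESC and 0 lower (median log2 ratio of -0.16). The shares of all genes were 17.2% and 16.4%, with a median of -0.13. KIF24, which acts at the mother centriole to hold back cilium growth, had 243, 417, 311, 463 and 765. The N3 array was the highest and lay 3.15-fold above ESC. KIF27, a relative of KIF7, had 39.1, 127, 122, 111 and 228, or at least 2.28-fold higher at the end than at the start. With a floor of 200 that log2 ratio was 0.19.

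KIF7, a Hedgehog pathway regulator at the cilium tip, varied little, with 939, 682, 639, 910 and 841. KIF9, a kinesin of motile cilia, had 431, 609, 455, 575 and 302 on a probe set marked as able to bind related transcripts. Its second probe set had 643 in ESC and 60.8 in EB, so these disagreed. KIF6 and KIF19 lay at or near the floor, between 8.21 and 188.

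Markers of multiciliated cells were low. Over 8 genes with a probe set their summed signal was 568, 602, 683, 752 and 1141, and 3 were below the floor on all arrays. FOXJ1, the master factor of motile cilia, was 17.4 in ESC and 211 in N3. Their part in the cilium motor values was not tested.

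Only 2 alpha and 2 beta tubulin genes are covered here, so these families as a whole are not described. Among these genes there was 1 large difference. TUBA4A, an alpha tubulin, had 3912, 659, 525, 455 and 797. ESC stood far above the other 4 arrays, by 5.94-fold over EB and 4.91-fold over N3. The gene has 1 probe set here. TUBAL3, a divergent alpha tubulin, was above the floor in ESC alone (116).

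TUBB, the widely expressed beta tubulin, had 30628, 17533, 20487, 13750 and 24954. ESC and N3 were the high arrays, while EB and N2, again the pair with the highest actin ratios, were the low ones. N3 was 1.81-fold above N2, and the second probe set gave a log2 ratio of 1.25 for the same step. The brightest TUBB probe set is marked as able to bind related transcripts, so beta tubulins of near-identical sequence could add to it. TUBB1, the beta tubulin of platelets, lay at 142 in ESC, 104 in N1 and below the floor elsewhere. Among 6 markers of blood cells and platelets, the brightest probe sets of the platelet genes ITGA2B (278, 90.8, 157, 37.3 and 51.3) and PF4 (200, 94.8, 339, 133 and 126) were also highest in ESC and N1. The second PF4 probe set did not share this, with 28.0, 54.8, 157, 147 and 69.8, and that of ITGA2B stayed below the floor. GP9 was above the floor in ESC alone (107), and PPBP in N1 (249) and N2 (168). The globin genes HBE1 and HBG2 peaked in N1, at 2077 and 5079. The part of such cells in the TUBB1 signal was not tested.

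TUBG1, gamma tubulin, had 5051, 3282, 2402, 3256 and 2516, and was 2.01-fold lower in N3 than in ESC. TUBGCP4, a subunit of the gamma tubulin ring complex, had 942, 447, 615, 182 and 233. It was 3.37-fold lower in N2 than in N1 and 4.04-fold lower in N3 than in ESC. TUBGCP4 has 1 probe set here, and its lowest signal was on the N2 array, which had the highest actin and GAPDH ratios. TUBG1 lay at the edge of 2-fold, and its log2 ratio came to -0.87 under quantile normalisation, -0.91 under equal medians and -0.80 under scaling to hybridisation controls.

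The brightest probe sets of the other subunits did not share this. TUBGCP2 had 898, 1024, 915, 753 and 941, and TUBGCP6 had 272, 354, 389, 331 and 519. Their second probe sets were lower in N3 than in ESC, with log2 ratios of -0.81 for TUBGCP2 and -0.22 for TUBGCP6, so no direction can be given for either. Of the 4 genes of the complex, 2 were thus at least 2-fold lower on the brightest probe set in N3 than in ESC and 0 higher. The shares of all genes were 16.4% lower and 17.2% higher.

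**Figure D3:**
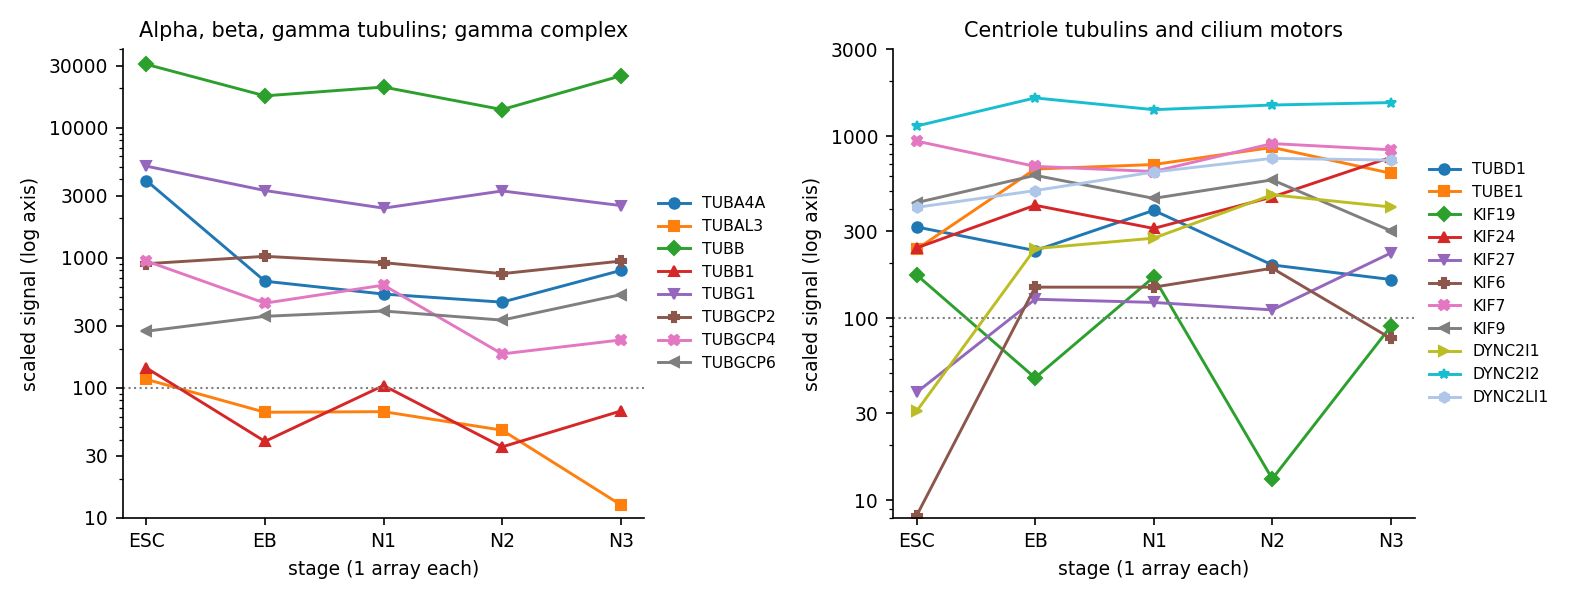
Scaled signal (log axis) at the 5 stages, 1 array for each point, of tubulins with the gamma tubulin complex (left) and of centriole tubulins with cilium motors (right), with the floor of 100 dotted. TUBA4A is high in ESC alone, whereas TUBE1 and DYNC2I1 are lowest there.

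Kinesins of no fixed role were few. KIF26B, a kinesin without motor activity known from kidney development, had 250, 695, 403, 462 and 551, and was 2.77-fold higher in EB than in ESC and 2.20-fold higher in N3. With quantile normalisation the N3 log2 ratio was 0.96. KIF26A, its relative, had 500, 629, 718, 509 and 540. In N3 against ESC its log2 ratio was 0.11, but -1.60 (a bound) on the second probe set, so no direction can be given for KIF26A. KIF12 was above the floor in ESC alone, at 115.

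KIF2A, which shortens microtubules at spindle poles and in growing axons, had 2702, 1882, 1525, 1389 and 1360. It was 1.99-fold lower in N3 than in ESC. Its other 3 probe sets were higher in N3, with log2 ratios of 1.11, 0.24 and 0.89, so no direction can be given for it.

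Proteins that bind microtubules or sequester tubulin included several genes with much higher signals in N3. Of 19 listed genes 11 have a probe set, and in N3 against ESC 7 were at least 2-fold higher and 1 lower, with a median log2 ratio of 1.48. DCX was 57.2-fold higher, STMN4 at least 33.5-fold, STMN2 26.5-fold and MAP6, a stabiliser of neuronal microtubules, 15.3-fold. MAP6 read 237, 141, 296, 1564 and 3621, and its second probe set gave a log2 ratio of 3.96 for N3 against ESC. The second probe set of DCX did not share its course (101 and 94.1). DCX and STMN2 are also in the neuron marker list.

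Genes for the folding and modification of tubulin included few such differences. Of 16 listed genes 12 have a probe set, and of 11 measured 0 were at least 2-fold higher and 2 lower in N3 against ESC, with a median log2 ratio of 0.10.

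**Figure D4:**
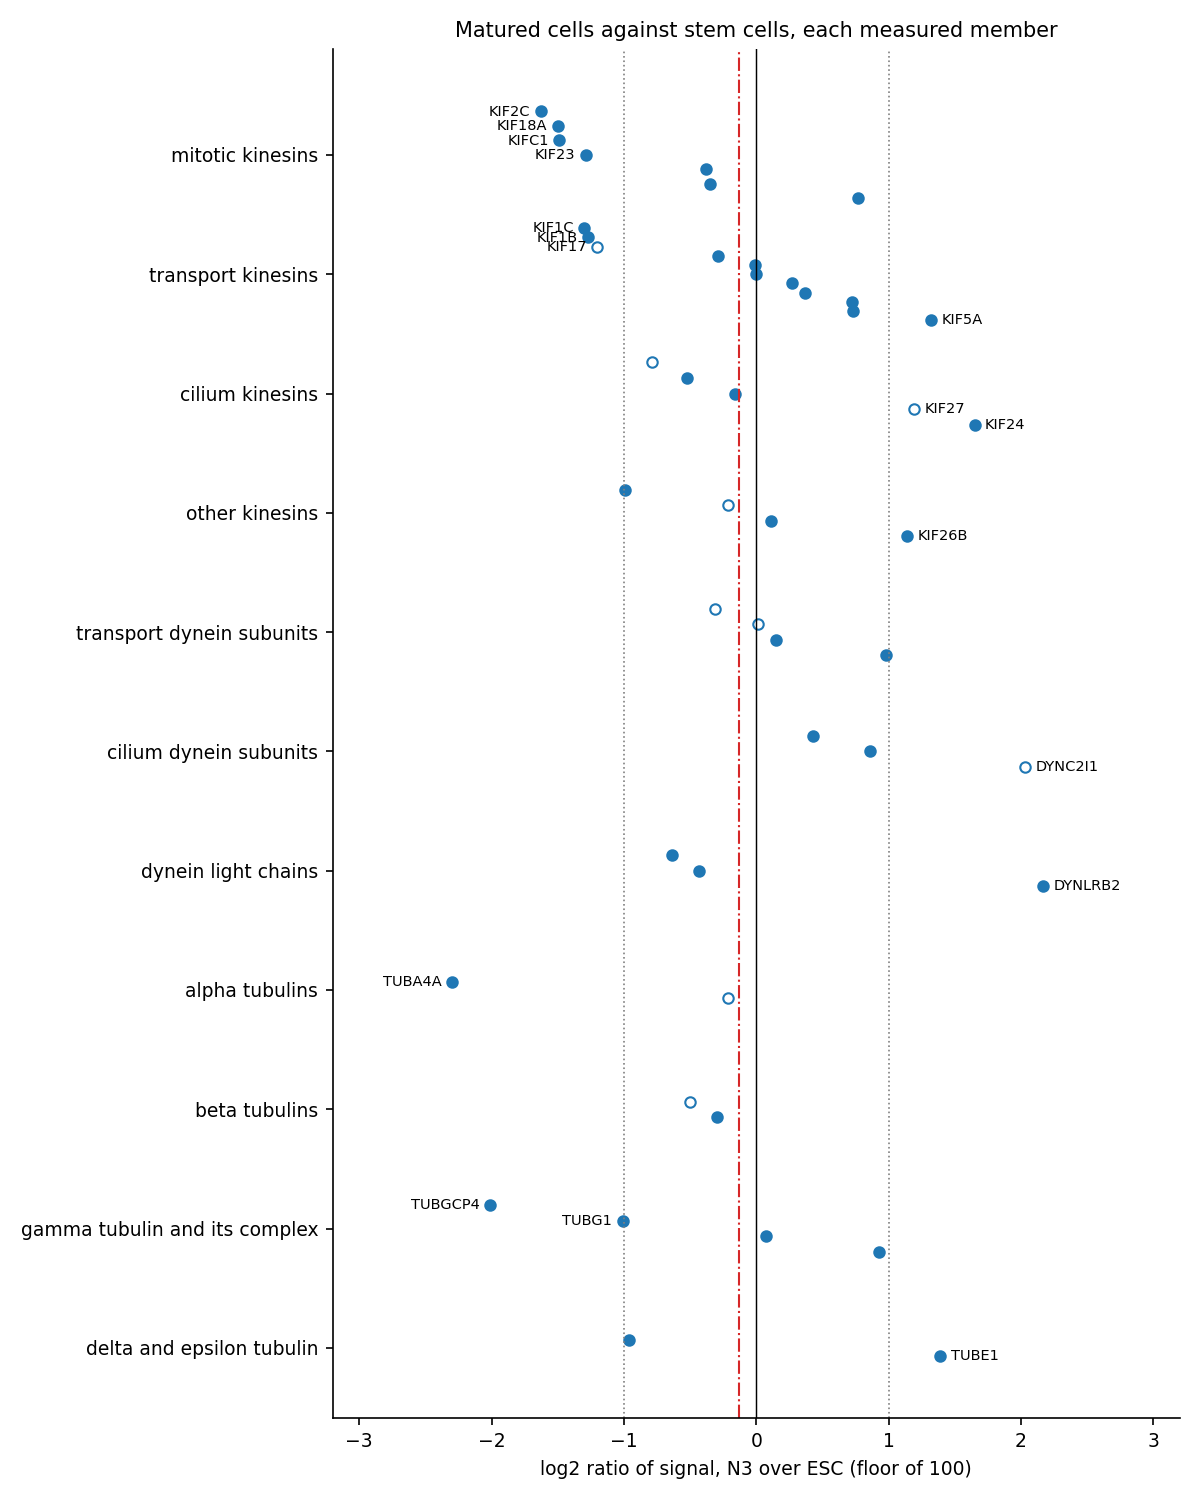
Log2 ratio of signal in N3 over ESC for 47 measured genes, by role, 1 point for each gene. Open points have 1 side under the floor of 100, dotted lines mark 2-fold, the dash-dotted line is the median of all measured genes (-0.13), and the named points are the 7 higher and 10 lower genes.

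Taken over the whole family, N3 against ESC had 7 of 47 measured genes at least 2-fold higher (14.9%) and 10 lower (21.3%), beside the 17.2% and 16.4% of all genes. The split was 10 higher and 9 lower when arrays were scaled to hybridisation controls. Of the 47, 38 were at the floor or above on both arrays.

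EB against ESC had 4 of 48 higher and 6 lower, where 12.1% of all genes were higher and 11.8% lower. That split depended on scaling: it was 8 higher and 1 lower with equal medians, which moved the median of all genes from -0.06 to 0.41, and 4 and 3 with hybridisation controls. Transport kinesins had a median log2 ratio of -0.62 in this step, and 8 of 11 were below ESC, against 53.2% of all genes. With equal medians their median was -0.14.

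The later steps held few differences in this family. N1 against EB had 1 of 44 genes higher (KIFC2) and 0 lower, beside 5.15% and 2.20% of all genes, and 0 and 3 with equal medians. N2 against N1 had 2 of 45 higher (KIF21A and KIF5A) and 2 lower (KIF1B and TUBGCP4), beside 5.06% and 6.53%. Scaled to hybridisation controls, this became 1 higher and 10 lower, with an all-gene median of -0.57. N3 against N2 had 1 of 43 higher (KIF27) and 0 lower, beside 4.78% and 2.19%, and 0 and 2 with quantile normalisation or with equal medians.

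Scaling moved every gene at once. With equal medians the median log2 ratio of all genes was -0.37 in the step from EB to N1 and -0.13 in that from N2 to N3, where the scaling used here gave -0.02 in both. With hybridisation controls these steps had 0.41 and 0.17, and N3 against ESC had 0.04.

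Probe sets of one gene gave the single technical spread available. It is the SD of the difference between log2 ratios of the brightest and second probe sets, divided by the square root of 2, over all genes with both measured. It was 0.753 for EB against ESC, 0.451 for N1 against EB, 0.541 for N2 against N1, 0.433 for N3 against N2 and 0.818 for N3 against ESC. A 2-fold difference is 1 on this scale. In the comparisons with ESC, 2-fold is therefore not far above this spread, which is no replicate spread.

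Of the 17 motor and tubulin genes with both measured in EB against ESC, 7 had the same direction on both probe sets, against 62.8% of all genes. For N3 against ESC it was 11 of 19, against 69.5%. The adjacent later steps had 8 of 14 (N1 against EB), 14 of 17 (N2 against N1) and 13 of 17 (N3 against N2), where all genes had 59.1%, 60.5% and 59.7%. In both comparisons with ESC, the genes described here thus had a lower share of agreeing probe sets than all genes, a difference that was not tested. In 4 of the 17 in EB against ESC, KIF9, KIF22, KIF26A and TUBGCP2, the second probe set was at least 2-fold lower in EB while the brightest was higher. Among the 4 genes past 2-fold in N3 against ESC with a second measured probe set, its ratio had the same sign for 3 (KIF2C, KIF1B and KIF1C) and also passed 2-fold for 2. The exception was DYNC2I1.

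**Figure D5:**
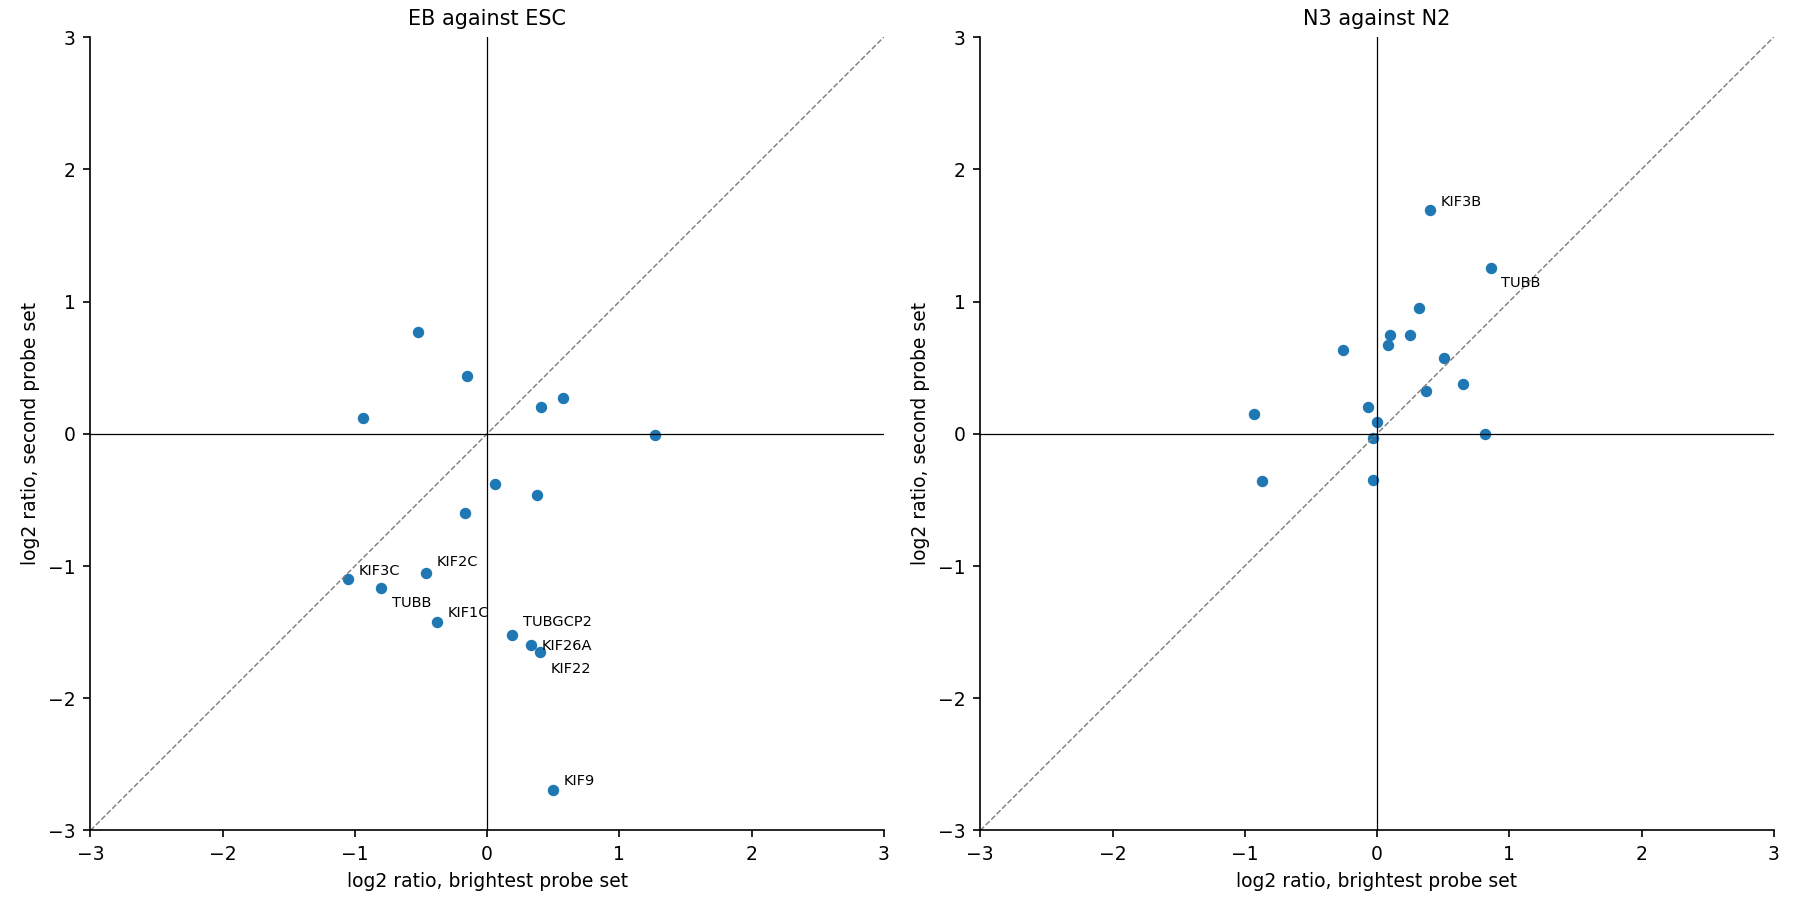
Log2 ratio on the second probe set against that on the brightest for 17 motor and tubulin genes in EB against ESC (left) and 17 in N3 against N2 (right), 1 point for each gene, with the line of equality dashed. In the left panel several second probe sets lie below -1 where the brightest lies near or above 0.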

How the data were processed

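Messenger RNA was measured on 5 rhesus arrays, 1 for each stage. The values deposited by the authors are intensities on a linear scale, already scaled to a common level (trimmed mean of 199 on each array). The software was GCOS 1.0, per the submitters' processing notes. Its algorithm, scaling target and calls of presence were not given in the sources used here. Signals were multiplied to bring the trimmed mean of non-control probe sets (2% off each end) to 500, floored at 100 and put on a log2 scale. Of 52865 probe sets, 24969 carry 1 gene symbol in the GEO platform annotation, 361 several and 27535 are not listed. Entrez identifiers of all 52 members matched a RefSeq gene table with the same symbol. The members hold 90 probe sets, and 27 have 1 each. Probe sets that name TUBA8 or TUBA3E beside another gene were not used. No coordinates or sequences are given, since no genome build or sequence table was used here.

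Comparisons were each stage against the one before and N3 against ESC. A gene counted as measured when above the floor on at least 1 of 2 arrays. The role lists follow textbook function. Values are given for each mitotic kinesin and for each member spanning 2-fold with a highest signal of at least 200. The other measured members were added, some dim ones only in part or as a range, and members below the floor throughout are named without values. Listed genes outside the family are mostly the largest differences of a list, and others, such as RACGAP1, ASPM and GP9, are not. Members and lists were chosen with earlier results of these data known. The number of arrays limits the precision. Alternatives changed the scaling, the floor and the probe set standing for a gene. The calculation was tested on simulated data. That simulation held changes larger than 2-fold in bright genes, with less noise than the probe set spread. It does not bear on calls near 2-fold or near the floor. Python 3.11.15, numpy 2.4.6, pandas 2.3.3 and matplotlib 3.10.9 were used.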

Additional observations from a re-analysis of the deposited data

How the results depend on the processing

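Of 33 ratios of members past 2-fold, each under 9 other settings (297 in all), 264 kept their direction and stayed past 2-fold, and 0 reversed. A change of floor cannot reverse a ratio on a given probe set, so for those settings the lack of reversals was set in advance. The median of the mitotic kinesins in N3 against ESC lay between -1.31 and -1.09. Other medians moved by more than the probe set spread divided by the square root of the number of members. With equal medians the mitotic kinesins stood at 0.57 (EB against ESC) and -0.57 (N1 against EB), and the transport kinesins at -0.14 and -0.11. With hybridisation controls the mitotic kinesins stood at 0.26 (N1 against EB), -0.97 (N2 against N1) and -0.01 (N3 against N2), and the transport kinesins at 0.72, -0.37 and 0.28. The mitotic median in N3 against N2 was 0.11 with the median of probe sets. The transport median in EB against ESC was -0.29 with a floor of 200 and -0.93 without one. It was -0.31 when all probe sets of a gene were summarised by their median, and -0.94 when cross-binding probe sets were dropped. The cause was not tested.

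Counts of members moved by over 1.5 times as follows. In EB against ESC, 8 were higher and 1 lower with equal medians, 3 lower with hybridisation controls, 7 higher and 11 lower with a floor of 50, and 7 higher and 13 lower with no floor. In N1 against EB, 0 were higher with quantile normalisation, equal medians or a floor of 200, 3 with hybridisation controls or a floor of 50 and 6 with no floor, while 3 were lower with equal medians and 1 with a floor of 50 or no floor. In N2 against N1, 1 was higher with hybridisation controls, a floor of 200 or the median of probe sets and 4 with no floor, while 10 were lower with hybridisation controls, 4 with a floor of 50 and 6 with no floor. In N3 against N2, 0 were higher with quantile normalisation, equal medians or a floor of 200, 4 with hybridisation controls, 3 with no floor and 2 with the median of probe sets or with cross-binding ones dropped, while 2 were lower with quantile normalisation or equal medians, 1 with a floor of 50 and 3 with no floor. In N3 against ESC, 16 were lower with no floor. Lower floors let dimmer signals pass. No paired analysis was possible because each stage has 1 array.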
